A study of Mus musculus with 2 samples.

Results

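The members described here were the 3p arms of the mouse hairpins numbered miR-6896 to miR-7094, a run of late-annotated miRNA names. They were chosen by number and arm alone, and 193 of the 1847 mature miRNAs in the deposited tables belonged to them. The tables come from sequencing of small RNA in extracellular vesicles (EVs, particles bounded by a membrane that cells release) isolated from serum of male iFIRKO and control mice. iFIRKO mice (Adipoq-CreERT2; Insr flox/flox) lose the insulin receptor in adipocytes after tamoxifen, because the adiponectin promoter drives a tamoxifen-dependent Cre recombinase in these cells. The controls are labelled WT, whereas the methods of the study name IR flox/flox mice as the controls. Mice of both groups were 7 weeks old, were injected with 100 mg/kg tamoxifen on 5 days in a row, and were analysed on day 3 after this treatment. Each group had 1 library, made from serum pooled over several mice, so no spread between animals was measured and no test between genotypes was possible. All intervals given below cover counting error only.

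Which library belongs to which genotype rests on the labels, and no miRNA could check it against the Insr deletion. There is a reason for doubt. miR-451a, miR-144-3p, miR-486a-3p and miR-16-2-3p had ratios of the iFIRKO-labelled to the control-labelled library of 0.409, 0.506, 0.549 and 0.557, so all 4 were lower in the former. The study describes these miRNAs as raised in iFIRKO serum EVs, by sequencing and by RT-PCR of single sera, and most other EV-miRNAs as reduced, which is the reverse of the direction in the deposited tables. The labels may therefore be exchanged, which the tables cannot settle. In that case every ratio below turns into its reciprocal and higher and lower change places, whereas sequences, positions and the values within a library stay as given.

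A mirtron is a miRNA hairpin cut out of a pre-mRNA by the splicing machinery instead of the Drosha nuclease. The ends of its hairpin are set by the ends of the intron, so that the 3p arm finishes on the AG dinucleotide of the splice acceptor and carries the pyrimidine tract that precedes it. In a tailed mirtron only 1 end of the hairpin coincides with an intron end, and the surplus bases on the other side are trimmed before Dicer separates the arms. Most such hairpins are expressed at low levels.

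The sequences were examined first, because the rule read only the number and the arm. The block was, however, picked as one known to be rich in mirtrons. Its sequence ends and positions therefore describe it and are no independent evidence. A mature sequence was found in RefSeq (GRCm38.p6) for 170 of the 193 members. Of these 170, 131 (77.1%) ended in AG, against 55 of 490 other 3p arms (11.2%) and 12 of 178 5p arms with the same numbers (6.74%). CAG was the ending of 115 members and UAG that of 14. Pyrimidines made up a median of 72.5% of the bases of a member (quartiles 66.7% and 77.3%), against 54.5% in the other 3p arms and 31.8% in the 5p arms of the block. The members had a median length of 21.5 bases (range 18 to 25), and 90 of them (52.9%) began with U, against 38.0% of the other 3p arms. The 3 most abundant members and miR-7048-3p, which is also among the 8 most abundant by mean level, are shown so that this pattern can be read. Capitals mark the seed (bases 2 to 8, which pair with targets) and, where present, the closing AG.
miR-6946-3p: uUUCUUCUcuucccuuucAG
miR-7070-3p: cAGGCUCUccuucccuccAG
miR-6986-3p: gUUUUCACcuuccucccAG
miR-7048-3p: uCUUCCAUucucuuuccccAG
Some members lacked the closing AG. Of the 3 printed here, miR-7022-3p stopped 1 base and miR-6945-3p 2 bases before the intron end, and miR-6936-3p lay 16 bases before it.
miR-7022-3p: aCAAGCCUgaccucugccccca
miR-6945-3p: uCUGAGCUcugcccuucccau
miR-6936-3p: cGGCGCGCgcggucgcucacc

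**Figure D1:**
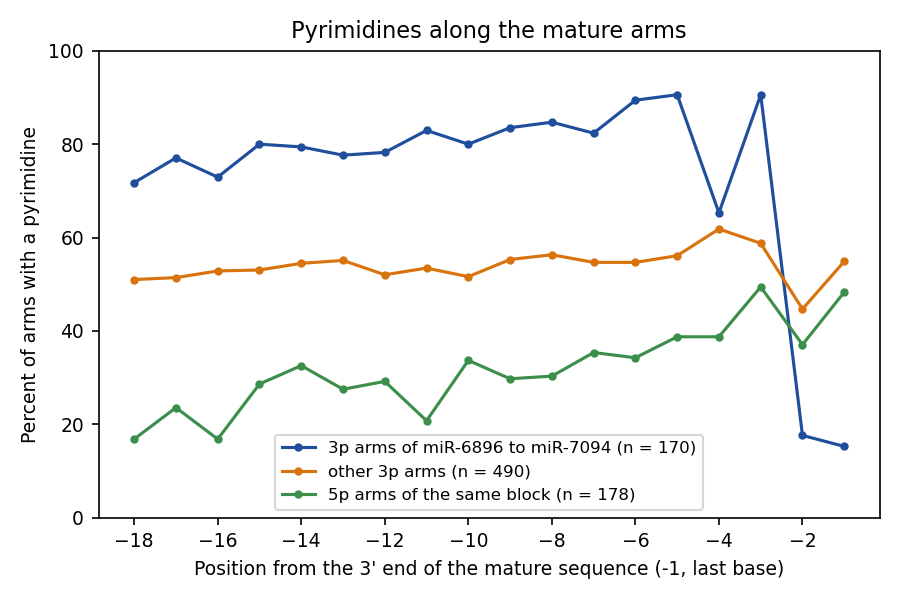
Percent of mature arms with a pyrimidine at each position counted from the 3′ end (-1 is the last base), for 170 members (blue), 490 other 3p arms (orange) and 178 5p arms of the same hairpin numbers (green). The members held a pyrimidine in 90.6% of sequences at the third base from the end and in 15.3% at the last base, whereas the other 3p arms stayed between 44.7% and 61.8% throughout.

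Next, the arms were placed against the introns of GENCODE (GRCm38, the same build). The 170 sequenced members lay at 172 loci on 19 chromosomes, and each of the 172 loci lay within an annotated intron on the same strand. The last base of the arm was the last base of an annotated intron at 130 of the 172 loci (75.6%), 1 base short of it at 13 and 2 bases short at 17. In all, 160 loci (93.0%) ended within 2 bases of an acceptor, against 34 of 506 loci (6.72%) of the other 3p arms. The 12 remaining loci included 7 that ended within 10 bases and 5 that lay further away. Of these, miR-6936-3p, miR-6977-3p and miR-6927-3p ended 16, 19 and 21 bases before the nearest intron end, and miR-7025-3p and miR-7036b-3p ended 233 and 11855 bases after it, within another intron. All 130 arms that reached the intron end closed with AG, as did all 21 such loci of the other 3p arms. AG is the dinucleotide of the acceptor, so this followed from the position.

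Among the 160 loci ending at an acceptor, the shortest intron with that acceptor had a median length of 472 bases (range 73 to 36269). It was at most 150 bases at 47 loci and longer than 1000 bases at 55. On the other side, the first base of the 5p arm was the first base of an intron at 15 of 179 loci of the block. In the annotation, the acceptor end was thus common to nearly all members, and a short intron to a minority of them. A hairpin that spans its intron from end to end was not the usual arrangement. At 26 of the 172 loci the arm also lay within an exon of another transcript on the same strand, so reads from such a transcript could not be told apart from the arm.

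**Figure D2:**
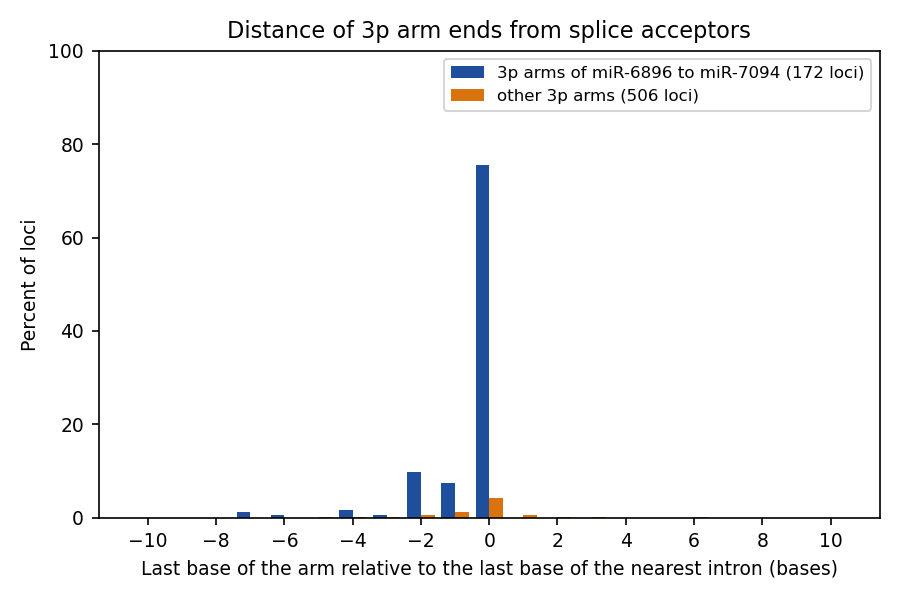
Distance in bases from the last base of a 3p arm to the last base of the nearest intron on the same strand (negative, short of the intron end), as percent of 172 loci of the members (blue) and 506 loci of other 3p arms (orange). Loci more than 10 bases away, 5 of the members and 467 of the others, are not drawn but count in the percentages, and the blue bar at 0 stands at 75.6%.

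Seeds were almost all different. The 170 sequences held 162 distinct seeds, and 7 seeds occurred in more than 1 member, together in 15 members. The largest group shared the seed CACCCUG and came from introns of Hspg2 (perlecan, a basement membrane proteoglycan), Pik3cd (a leukocyte phosphoinositide 3-kinase subunit) and Cherp.
miR-7018-3p: uCACCCUGcugccggcuugcAG
miR-7023-3p: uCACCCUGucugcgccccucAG
miR-7068-3p: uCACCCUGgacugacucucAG
Values are given as the control count and then the iFIRKO count, and the floor stands for fewer than 10 counts. The ratio is the iFIRKO share of the library over the control share, with an interval from the split of both counts. miR-7018-3p was at the floor in the control-labelled library and had 17 counts in the iFIRKO-labelled library. miR-7023-3p had 24 and 20 counts, and miR-7068-3p had 18 and 39 counts. The ratio of miR-7068-3p was 3.70 (95% interval 2.07 to 6.88) and that of miR-7023-3p was 1.42 (0.746 to 2.69), and these intervals overlapped.

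A second group carried the seed of the passenger strands of miR-26, a miRNA of the Ctdsp phosphatase genes. It is shown because it was the only repeated seed that was also found in listed 3p arms outside the block.
miR-6932-3p: uCUGUUCUgcuuccucugcAG
miR-7039-3p: cCUGUUCUgcccucccuuccAG
Both members had 17 counts in the control-labelled library. In the iFIRKO-labelled library miR-6932-3p had 41 counts (ratio 4.12, 95% interval 2.29 to 7.74) and miR-7039-3p had 23 counts (ratio 2.31, 1.18 to 4.61). The miR-26 arms with this seed were more abundant, with 211 and 123 counts for miR-26a-2-3p (ratio 0.996, 0.791 to 1.25) and 74 and 85 counts for miR-26b-3p (ratio 1.96, 1.42 to 2.72). The 5 other pairs of members with a common seed were miR-6927-3p and miR-6945-3p, miR-6935-3p and miR-7092-3p, miR-6973b-3p and miR-7063-3p, miR-6992-3p and miR-7015-3p, and miR-7048-3p and miR-7077-3p. In these pairs the control-labelled library had from 10 to 110 counts, and miR-7092-3p was at the floor in the iFIRKO-labelled library.

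The members were scarce in both libraries. Each deposited value is a whole count divided by the depth of its library, which was 3817902 counts for control and 2233498 counts for iFIRKO, and the levels below are given as counts or as counts per 1000000 of that depth (CPM). No count from 2 to 9 was listed, so the lowest value was read as a floor that stands for fewer than 10 counts, that is under 2.62 CPM in the control-labelled library and under 4.48 CPM in the iFIRKO-labelled library. The median member had 21 counts (5.50 CPM) in the control-labelled library and 26 counts (11.6 CPM) in the iFIRKO-labelled library. The median over all miRNAs was 9.69 and 21.0 CPM, and that of the 5p arms of the block was 8.38 and 18.4 CPM. In the control-labelled library 22 members were at the floor, 166 had from 10 to 100 counts and 5 had more. In the iFIRKO-labelled library these numbers were 11, 171 and 11. No member was at the floor in both libraries, but 33 (17.1%) were at the floor in 1 of them, against 6.01% of all miRNAs.

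Together the members held 5831 counts in the control-labelled library and 7939 counts in the iFIRKO-labelled library, so that the shallower library had the larger sum. This was 0.153% of the control-labelled library (95% Wilson interval 0.149 to 0.157) and 0.355% of the iFIRKO-labelled library (0.348 to 0.363), a ratio of 2.33 (95% interval 2.25 to 2.41). The 3 most abundant members made up 17.8% and 14.4% of these counts. For orientation in the same libraries, 6 erythroid miRNAs (such as miR-451a) summed to 27.5% of the control and 19.9% of the iFIRKO-labelled library, 3 liver miRNAs (such as miR-122-5p) to 11.9% and 19.9%, 3 platelet and leukocyte miRNAs to 4.75% and 4.11%, and 3 muscle miRNAs to 1.07% and 0.983%. Nearly all of the erythroid sum was miR-16-5p in both libraries, so this sum mainly gives the level of that miRNA. By contrast, miR-451a had 5536 CPM in the control-labelled library and 2263 CPM in the iFIRKO-labelled library, a small part of the sum. The doubt about the labels rests in part on miR-451a, miR-144-3p and miR-486a-3p of the erythroid set, and also on miRNAs outside it. No marker of any of these sets was at the floor, and the part of the markers in the values of the members was not tested.

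**Figure D3:**
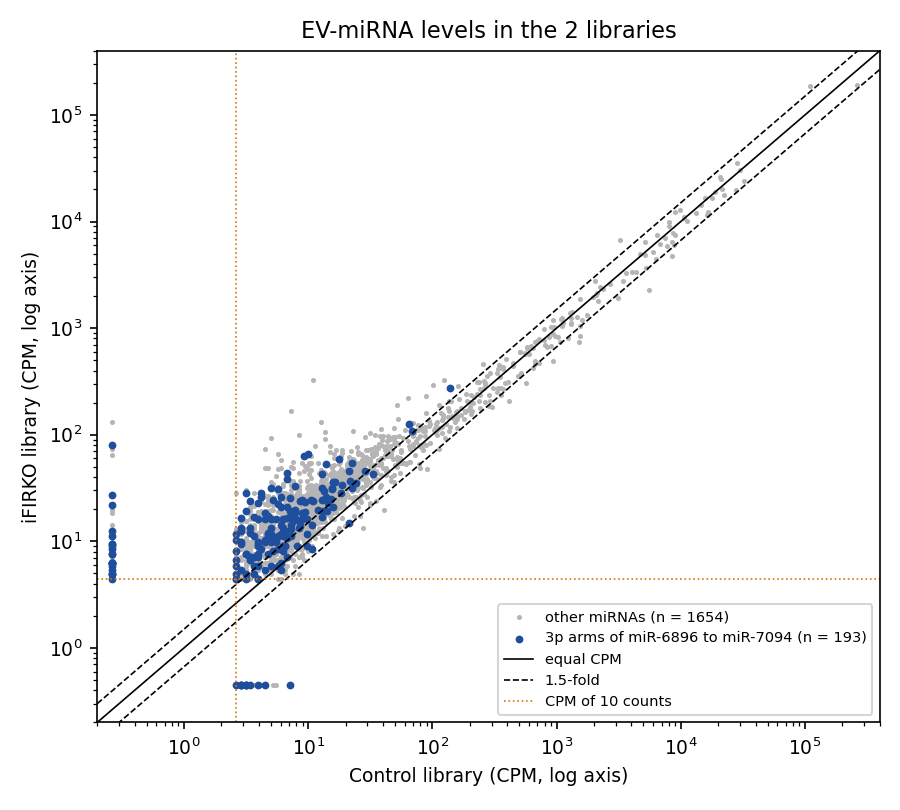
Level of each miRNA in the control-labelled library (horizontal axis, CPM, log scale) and in the iFIRKO-labelled library (vertical axis, CPM, log scale), with 193 members in blue and the other miRNAs in grey. The solid line marks equal CPM, dashed lines mark 1.5-fold and dotted orange lines mark 10 counts, and points below them are floor values drawn as listed; 156 of the 160 members above the floor in both libraries lie above the solid line.

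The share of the library was then compared member by member. On the deposited scale, and with the labels taken as they stand, 150 of the 193 members were more than 1.5-fold higher in the iFIRKO-labelled library, the threshold that the study used, and 11 were more than 1.5-fold lower. Over all 1847 miRNAs 66.3% passed this limit upward and 3.03% downward, and for the members the shares were 77.7% and 5.7%. The same shares were 58.6% and 3.14% for the other 3p arms and 87.6% and 0.99% for the 5p arms of the block. Each of the 11 lower members was at the floor in the iFIRKO-labelled library, and 22 of the 150 higher ones were at the floor in the control-labelled library. These floor values were taken as listed. With the floor set to 10 counts, miR-6974-3p alone remained past the limit downward (at least 1.58-fold lower). The 22 higher ones all remained past it upward (at least 1.71-fold higher). The depths fixed this in advance, because 10 counts in each library already give a ratio of 1.71. A fall past the limit needs at least 26 control counts, so the 2 outcomes cannot be compared. Among the 160 members above the floor in both, 128 (80.0%) passed the limit upward and 0 (0.0%) downward, beside 66.2% and 1.21% of all 1736 such miRNAs. Upward and downward shares were 57.5% and 1.68% for the other 3p arms and 87.8% and 0.508% for the 5p arms of the block, so the members stood between these sets in the upward share. Their median log2 ratio was 1.06 (quartiles 0.68 and 1.49), a 2.08-fold higher level, and the median over all miRNAs was 0.87. The counting interval of the ratio lay above 1 for 105 of the 160 members (65.6%, against 62.7% of all, 58.0% of the other 3p arms and 76.6% of the 5p arms). It lay below 1 for 0 members (0.0%), for 5.13% of all miRNAs, 7.09% of the other 3p arms and 0.0% of the 5p arms.

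Ratios in these libraries were smaller for abundant miRNAs, and above a mean count of 1000, where no member lay, 2.54% of 118 miRNAs were over 1.5-fold higher. Among miRNAs with a mean count from 10 to 100, 123 of 154 members (79.9%) and 76.3% of all 1317 miRNAs were over 1.5-fold higher, with median log2 ratios of 1.07 and 0.98. The other 3p arms of this class had a median of 0.92 (69.8% over 1.5-fold higher) and the 5p arms of the block had a median of 1.14 (86.8%). Read against all miRNAs of this class, which include the members and the 5p arms of the block, the members therefore stood close to the background. They stood further above the other 3p arms. Abundance still differed within the class, with a median mean count of 27.25 for members and 35.75 for the other 3p arms. The 6 members with a mean count of 100 or more had a median log2 ratio of 0.82, and 5 of them were over 1.5-fold higher, against 46.8% of 301 miRNAs in that class.

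**Figure D4:**
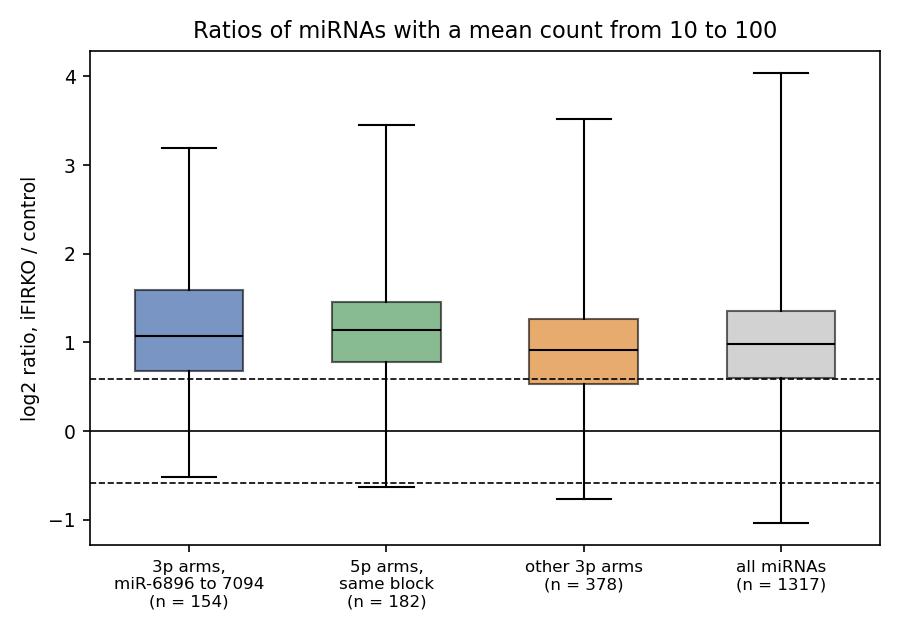
Log2 ratio of iFIRKO to control for miRNAs with a mean count from 10 to 100 that had no floor value, for 154 members, 182 5p arms of the block, 378 other 3p arms and all 1317 miRNAs. Boxes give the quartiles, lines within boxes the medians (1.07, 1.14, 0.92 and 0.98) and whiskers the whole range; dashed lines mark 1.5-fold in either direction.

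The floor and the depth also limited which ratios could be seen. The control-labelled library was 1.71 times as deep. For a control count up to 17, every iFIRKO count of 10 or more gave a ratio over 1, and this applied to 50 of the 160 members. For a control count up to 11, which applied to 14 members, it gave a ratio over 1.5. A fall past 1.5-fold could be seen above the floor only from 26 control counts upward. Of the 69 members with such counts, 55 (79.7%) passed the limit upward and 0 downward, beside 58.8% upward among 1222 miRNAs with such counts. With control counts from 26 to 100 the upward shares were 79.7% of 64 members and 74.3% of 825 miRNAs. TMM scaling assumes that most miRNAs do not change, and it lowered every log2 ratio by a shift of 0.85. With it, and with floor values taken as listed, 65 members were over 1.5-fold higher and 23 lower. The higher then made up 73.9% of those past the limit instead of 93.2%. Above the floor in both libraries there were 43 higher and 12 lower members. Over all miRNAs, floor values included, 21.0% were higher and 19.5% lower. The median log2 ratio was then 0.20 for the members and 0.012 for all miRNAs above the floor.

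Among the 8 members with the highest mean CPM, 7 were listed above the floor in both libraries and 6 of these were over 1.5-fold higher. miR-6946-3p, from the last bases of an intron of Sec24c (a coat protein of vesicles leaving the endoplasmic reticulum; chr14:20690684-20690703, plus strand), had 531 counts (139 CPM) in the control-labelled library and 619 counts (277 CPM) in the iFIRKO-labelled library. Its ratio was 1.99 (95% interval 1.77 to 2.24), the narrowest interval of the members. miR-7070-3p fills the end of an 86-base intron of the F-box gene Fbxw9 (chr8:85062152-85062171, plus strand) and had 247 and 282 counts, and its ratio was 1.95 (1.64 to 2.32).

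miR-6986-3p lies at the end of a 116-base intron of Rce1, a protease that matures prenylated proteins (chr19:4623898-4623916, minus strand). It had 261 and 242 counts, and its ratio was 1.58 (1.33 to 1.90). These 3 members led in both libraries, and their intervals overlapped. miR-7048-3p, from an intron of the death effector gene Dedd2 (chr7:25217668-25217688, minus strand), had 86 and 121 counts and a ratio of 2.41 (1.81 to 3.21). miR-6901-3p, from Sned1, had 67 and 131 counts and a ratio of 3.34 (2.47 to 4.56). miR-6914-3p was the exception among the abundant members: it had 126 and 96 counts, and its ratio of 1.30 (0.988 to 1.71) did not exclude 1. Its host Ankrd52, a regulatory subunit of a protein phosphatase, also holds miR-6915-3p, with 25 and 28 counts.

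The 6 largest ratios among members with a mean count of at least 30 belonged to arms with 12 to 38 control counts. For miR-7060-3p, 12 control and 64 iFIRKO counts gave a ratio of 9.12 (95% interval 4.88 to 18.6). The counts of miR-6919-3p were 13 and 53 (ratio 6.97, 3.75 to 13.9) and those of miR-6897-3p were 35 and 141 (ratio 6.89, 4.73 to 10.3). miR-7029-3p, with 16 and 63 counts, had a ratio of 6.73 (3.84 to 12.5), and miR-6936-3p, with 38 and 147 counts, one of 6.61 (4.60 to 9.71). The counts of miR-7027-3p were 19 and 71 (ratio 6.39, 3.81 to 11.2). All 6 intervals lay above 1.5 and overlapped each other. The hosts, where a position was found, were the following: Mgat4b adds branches to N-glycans (miR-6919-3p), Uggt1 checks glycoprotein folding (miR-6897-3p), Ube3b is a ubiquitin ligase (miR-7027-3p) and Sirt7 is a deacylase of the sirtuin family (miR-6936-3p). The arm of miR-6936-3p (chr11:120624827-120624847, minus strand) lay within a 66-base intron of Sirt7 and within an exon of another transcript.
miR-6919-3p: gCUCCUCCuccuggcccacAG
miR-6897-3p: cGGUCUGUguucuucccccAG
miR-7027-3p: uCGGGUUUcucuccucuuccAG
Beside the GC-rich miR-6936-3p printed above, these 3 have the usual pyrimidine-rich body and closing AG, so the largest ratios were found in both kinds of sequence.

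At the other end, few members had lower levels in the iFIRKO-labelled library. Of the 160 members above the floor in both, 4 had a ratio under 1, and the interval of each included 1. miR-6965-3p, from Ccnf (cyclin F), had 81 and 33 counts and the smallest ratio of them, 0.696 (95% interval 0.450 to 1.06). miR-7075-3p, from a 97-base intron of the telomere gene Terf2, had 41 and 19 counts and a ratio of 0.792 (0.434 to 1.40). The other 2, named because they complete this count, were miR-6979-3p (37 and 20 counts) and miR-6898-3p (23 and 12 counts). Among members with a mean count of at least 30, the next 4 by ratio after miR-7075-3p were miR-6929-3p (1.20), miR-6914-3p (1.30), miR-7081-3p (1.33) and miR-7078-3p (1.33), and the intervals of all 4 included 1. miR-7081-3p lies in an intron of Dnmt1, the maintenance DNA methyltransferase, and miR-7078-3p in an intron of Cmip, the gene that also holds miR-7077-3p (26 and 16 counts).

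Members at the floor in 1 library allowed only bounds. miR-7022-3p, from an intron of the F-box gene Fbxo6 (chr4:148146937-148146958, minus strand), was at the floor in the control-labelled library and had 178 counts in the iFIRKO-labelled library, which was at least 30.4-fold higher when the floor was set to 10 counts. miR-6982-3p (61 counts, at least 10.4-fold higher), miR-7000-3p (49 counts, at least 8.38-fold) and miR-7001-3p (28 counts, at least 4.79-fold) came next. The 5p arms of these hairpins were above the floor in both libraries. They had 31 and 41 counts (miR-7022), 140 and 128 (miR-6982), 49 and 70 (miR-7000), and 189 and 199 (miR-7001). The bounds therefore concern the 3p arms and not the hairpins. Mapk8ip1, a scaffold of the JNK kinases, holds miR-7000-3p, and Cd82, a tetraspanin of cell and vesicle membranes, holds miR-7001-3p. miR-6904-3p (in Parp1), miR-6948-3p (in Acin1) and miR-7043-3p (in Rassf4) had 25, 21 and 21 counts against the floor. In the other direction, miR-6974-3p, at the end of an 83-base intron of the lymphotoxin gene Lta, had 27 counts in the control-labelled library and was at the floor in the iFIRKO-labelled library, at least 1.58-fold lower. The 10 other members at the floor in the iFIRKO-labelled library had from 10 to 17 control counts, and for these a fall cannot be stated at this depth.

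Both arms of a hairpin come from 1 precursor, so the 3p arms were set beside their 5p partners within each library. Both arms were above the floor in both libraries for 154 hairpins of the block. The 3p arm had fewer counts than the 5p arm in 102 of the 154 hairpins in the control-labelled library and in 94 in the iFIRKO-labelled library, and it had more in 52 and 56. The median log2 of the 3p to 5p ratio was -0.50 and -0.53. In 456 other hairpins the 3p and the 5p arm led about equally often. There were more 3p counts in 218 and 225, more 5p counts in 232 and 224, and medians of -0.07 and 0. The same arm led in both libraries in 120 of the 154 hairpins and in 387 of the 456 others. The 3p arm led by more than 2-fold in both libraries in 11 of the 154 and in 108 of the 456. The 5p arm did so in 27 of the 154 and in 134 of the 456, so large leads of either arm were less frequent in the block.

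By the mean over both libraries, and among hairpins with no floor value, the 3 most abundant members also had the strongest 3p lead. miR-6946-3p had 531 and 619 counts against 26 and 27 for its 5p arm, a log2 lead of 4.35 in the control and 4.52 in the iFIRKO-labelled library. miR-7070-3p led by 3.95 and 3.10 on the log2 scale, miR-6986-3p by 3.86 and 2.63, and miR-6945-3p by 1.92 and 3.23, so that in the iFIRKO-labelled library alone miR-6945-3p stood above miR-7070-3p and miR-6986-3p. The reverse was seen for miR-6941-3p, in the Notch ligand gene Jag2, with 11 and 12 counts against 187 and 209 for its 5p arm. miR-6916-3p, miR-6938-3p (in the mismatch repair gene Mlh3) and miR-6963-3p (in the integrin gene Itga5) were likewise under their 5p arms, by log2 values of -2.71, -2.56 and -2.91 in the control-labelled library and -3.14, -2.76 and -2.21 in the iFIRKO-labelled library. Between libraries, the arms moved alike in size: the median log2 ratio of iFIRKO to control over the 154 hairpins was 1.04 for the 3p arms and 1.12 for the 5p arms. In the 456 other hairpins these medians were 0.75 and 0.71. Both arms were over 1.5-fold higher in 108 of the 154 and in 182 of the 456. Hairpin by hairpin the ratios of the arms were only weakly related (Spearman's rho 0.13 across 154 hairpins, against 0.31 across the 456 others), which in counts as sparse as these is no finding.

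**Figure D5:**
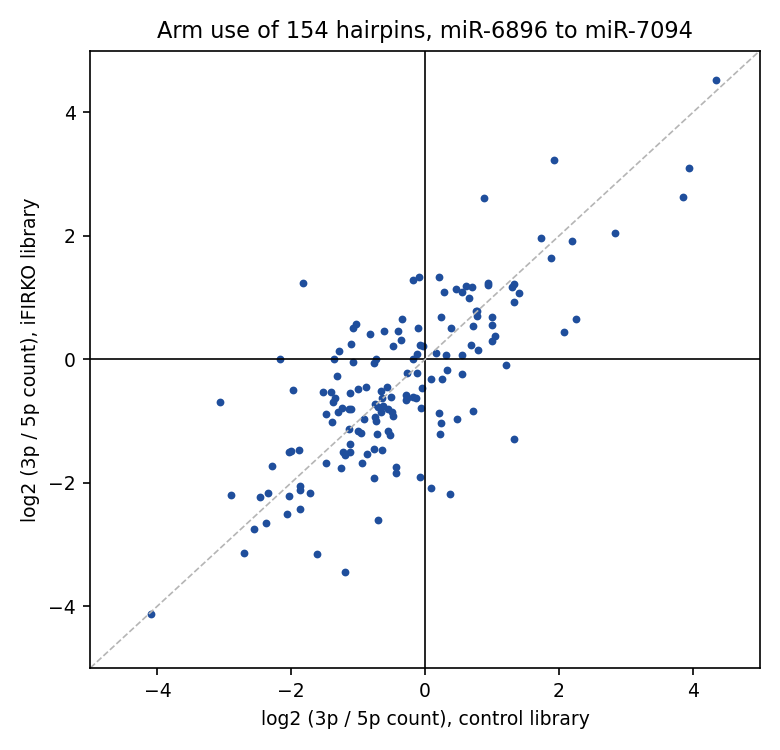
Log2 of 3p over 5p counts in the control-labelled library (horizontal axis) and in the iFIRKO-labelled library (vertical axis), 1 point for each of 154 hairpins with no floor value in either arm; the dashed line marks equal values. Points below and left of 0 have more 5p than 3p counts; 102 hairpins lie left of 0 in the control-labelled library and 94 lie below 0 in the iFIRKO-labelled library.

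The ratios were then set out by the features of the sequence and of the intron. Members ending in AG had a median log2 ratio of 1.02 (108 members above the floor in both libraries, quartiles 0.66 and 1.49), and the others had a median of 1.10 (33 members, 0.77 and 1.43). The arms that stopped 1 or 2 bases short of the intron end had a median of 1.15 (23 members), and those further away a median of 1.02 (12 members). By the length of the shortest intron the medians were 1.05 up to 150 bases (40 members), 1.08 above 150 and up to 1000 bases (46) and 0.95 above 1000 bases (43). Members within an exon of another transcript had a median of 0.93 (22 members), against 1.04 for the rest (119). The quartile ranges of these groups overlapped, and no test of their differences was possible. Across the 141 members with a sequence and both values, Spearman's rho with the log2 ratio was 0.05 for GC content, -0.06 for pyrimidine content and 0.08 for length.

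The members lay in 157 host genes at the 160 loci near an acceptor, and a few groups of them, chosen by function after the values were seen, are given as a description. A count of a 3p arm in EVs does not measure the host mRNA. Among hosts of insulin signalling and lipid or glucose metabolism, miR-6939-3p, in an intron of Akt1 (the kinase downstream of the insulin receptor), had 18 and 25 counts, and the ratio was 2.37 (1.24 to 4.62). Srebf1, the lipogenic transcription factor, holds miR-6921-3p, with 19 and 24 counts (ratio 2.16, 1.13 to 4.17), and miR-6922-3p, with 12 counts and the floor. miR-6993-3p in the fatty acid desaturase gene Fads1 had 15 and 17 counts, and miR-7085-3p in Slc37a4, the glucose-6-phosphate transporter, had 14 and 16. miR-7023-3p in Pik3cd had 24 and 20 counts and the lowest ratio of the group, 1.42 (0.746 to 2.69). miR-6990-3p in Esrra, a nuclear receptor of energy metabolism, and miR-7000-3p in Mapk8ip1 were at the control floor, with 10 and 49 iFIRKO counts. The 5 of these 8 members above the floor in both libraries had a median log2 ratio of 0.97 (range 0.51 to 1.25), near the 1.06 of all members.
Hosts of immune cells, Pik3cd among them again, gave 8 members, of which 7 were above the floor in both libraries with a median log2 ratio of 0.94 (range 0.06 to 1.46). The highest was miR-6957-3p in Grap2, an adaptor of T cell signalling, with 33 and 53 counts. miR-6949-3p in the basophil protease gene Mcpt8 had 49 and 55. In genes expressed in nearly every cell, miR-6935-3p in the actin gene Actg1 had 33 and 34 counts (ratio 1.76, 1.06 to 2.93) and miR-7079-3p in the ribosomal protein gene Rpl13 had 13 and 27 (ratio 3.55, 1.77 to 7.49). Both of these arms, like miR-6922-3p and miR-6990-3p above, also lay within an exon of another transcript. Reads from such a transcript could not be told apart from the arm. The 2 members in genes of the exocrine pancreas, miR-6969-3p in Clps and miR-7076-3p in Ctrb1, were each at the floor in 1 library.

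Short-intron hairpins outside the block, fixed as a list for comparison, were given as values. miR-877-3p, at an 85-base intron of Abcf1, had 78 and 62 counts (ratio 1.36, 95% interval 0.957 to 1.92). miR-1224-3p, at an 85-base intron of Vwa5b2, had 35 and 49 counts (2.39, 1.52 to 3.80), miR-702-3p in Plod3 had 60 and 63 counts (1.79, 1.24 to 2.60) and miR-1981-3p in Marc2 had 62 and 148 counts (4.08, 3.01 to 5.58). The 4 arms ended 1, 0, 2 and 2 bases short of the intron end, respectively. The reference miR-148a-3p of the study had 24524 and 16705 counts, a ratio of 1.16 (1.14 to 1.19).

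At the limits of the numbering, values just inside and just outside were as follows. The first member, miR-6896-3p (in Dst), had 19 and 30 counts, and the last, miR-7094-3p, which lies at 2 loci on chromosome 12, each 1 base short of the acceptor of an 83-base intron of an immunoglobulin heavy chain gene (Ighv1-2 and Ighv1-5), had 10 and 26. Just outside, miR-6715-3p had 11 and 23 counts and miR-6769b-3p had 13 and 22 on the lower side, and on the upper side miR-7115-3p was at the floor and had 13 counts, while miR-7116-3p had 32 and 64. The 70 3p arms numbered above the block and above the floor in both libraries had a median log2 ratio of 1.07. The 335 3p arms numbered below 1000 had a median of 0.55, and 0.81 among those with a mean count from 10 to 100.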

How the data were processed

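The deposited tables of the authors hold 1 normalized signal per mature miRNA for each of 2 libraries (QIAseq kit, NextSeq500, GeneGlobe analysis, build mm10 per the labels). The aligner, the miRNA release and the use of molecular identifiers are not given in the sources used here. Every signal (100.0% of values, within 0.01 reads) was a whole count divided by 1 constant, which was taken as depth. Listed miRNAs summed to 99.3% (control) and 99.1% (iFIRKO) of it. The ratio of iFIRKO to control was computed with no pseudocount, a 1.5-fold limit and a 95% Clopper-Pearson interval from counting error, and the calculation was tested on simulated data. Members, lists and rules were chosen with earlier results of these data known. Named members were the 8 highest by mean CPM, the 6 largest and 6 smallest ratios at a mean count of at least 30, up to 8 at the floor, 4 with the highest and 4 with the lowest 3p to 5p ratio, those sharing a seed, and those at the limits of the block. Groups of hosts were chosen after their values were seen. Groups of hosts that hold an item not reported here are given in part or left out. Sequences came from RefSeq and introns from GENCODE, both on GRCm38. For introns sharing an acceptor, a protein-coding host was preferred, then the shortest. Alternatives were filters at mean counts of 30 and 50, 1 CPM added, a 2-fold limit and 4 scalings, among them TMM (edgeR 4.0.16, R 4.3.3). Python 3.11.15 and scipy 1.17.1 were used.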

Additional observations from a re-analysis of the deposited data

How the results depend on the processing

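No paired analysis was possible because 1 library stood for each genotype, and for the same reason none could be left out. As reported, 150 members were higher, 11 were lower, all 11 at the floor in the iFIRKO-labelled library, and the median log2 ratio was 1.06. With members restricted to a mean count of 30 or more there were 66 higher, 0 lower and a median of 1.14, and from 50 upward 28, 0 and 0.997. Fewer members were tested, with 75 and 32 of them above the floor in both libraries. The 66 and the 28 also hold members at the control floor, miR-7022-3p in both. No share over all miRNAs at these filters is given here, so these counts are no finding about the members. The members with at least 26 control counts, an alternative added after seeing the data, gave 55, 0 and 0.99. Over all miRNAs with such counts 58.8% were higher, and the median was 0.72. Leaving out floor entries left 0 lower. With TMM scaling there were 65 higher, 23 lower and a median of 0.20, beside 21.0% higher and 19.5% lower over all miRNAs. Of these members, 43 and 12 were above the floor in both libraries. Adding 1 CPM gave a median of 0.96, scaling by the median of ratios 0.80 and scaling to miR-148a-3p 0.84. Over all miRNAs above the floor, the median of ratios gave 0.61 and miR-148a-3p gave 0.65. The summed share without the most abundant member was 0.139% (control) and 0.328% (iFIRKO). Hairpins with more 3p than 5p counts numbered 52 of 154 in the control-labelled library, and 34 of 98 at a mean of at least 60 counts over both arms. At over 2-fold there were 17 (control) and 23 (iFIRKO) of the 154. The median of members not ending in AG was 1.20 at a mean count of at least 30. In no setting did the sign of the median change. A median of 21 control counts and 1 pooled library for each genotype limit single ratios, and all directions rest on labels that may be exchanged.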
